A study of Mus musculus with 20 samples.

Results

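The genes described here are 40 endothelial and angiogenesis genes, chosen by symbol from a list of vascular identity, tip cell and lymphatic genes and found among the 35226 genes of the count table. They were measured by poly(A) RNA sequencing in 20 subcutaneous tumors grown from LLC1 cells, a mouse Lewis lung carcinoma line, in the right flank of male C57BL6/J mice aged 8 to 10 weeks. The mice entered their group when the tumor had reached 100 mm3 and received vehicle, KW6002, cisplatin, or cisplatin with KW6002 (cotreatment), with 5 tumors in each group. KW6002 (istradefylline) is an antagonist of the adenosine receptor that Adora2a encodes, cisplatin is a platinum drug that crosslinks DNA, and the vehicle was the DMSO, cremophor and saline carrier of KW6002. No transgene or deletion is named for any host, the cells were injected with Matrigel, and the doses and sampling day of each tumor are not stated in the labels. Vehicle replicate 1 carries the label vehicle, whereas vehicle replicates 2 to 5 carry vehicle_vehicle, and the 5 were treated as 1 group. The comparison asked which blood vessel and lymphatic genes differed between tumors with and without cisplatin, and whether KW6002 changed them.

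Blood vessels of a transplanted tumor are built by cells of the host. Endothelial cells line them and hold together through VE-cadherin and claudin 5, which seal the junctions between cells. Growth of new vessels is driven by vascular endothelial growth factor (VEGF) acting on its receptors, and is led by tip cells, which send out sprouts and restrain their neighbors through the Notch ligand DLL4. Angiopoietins acting on the receptor TIE2 govern how tightly mural cells (pericytes and smooth muscle) cover the vessel. Lymphatic endothelium is set apart by the transcription factor PROX1 and the receptor VEGFR3. Several of the genes are not limited to endothelium: Pecam1, Icam2 and Fli1 are also used by leukocytes, Cd34 by fibroblasts, Vwf by megakaryocytes and Lyve1 by some macrophages.

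Total counts ranged from 28.4 to 41.0 M reads per tumor, and 39 of the 40 genes passed the filter on low counts. The exception was Prox1. Defining endothelial markers were present in every tumor, with Cdh5 between 15.0 and 63.9 CPM (counts per M counts of the scaled library) and Pecam1 between 26.2 and 78.7 CPM. Some tumors held marker RNA of skeletal muscle or fat, and its source was not tested. The sum of 4 skeletal muscle markers (Acta1, Ckm, Myh4 and Tnnt3) was above 100 CPM in 5 tumors (KW6002 replicate 5, cisplatin replicates 1, 3 and 5, and cotreatment replicate 4, the last at 932 CPM), and the sum of 4 fat markers (Adipoq, Plin1, Cidec and Lep) was above 20 CPM in vehicle replicate 2 and KW6002 replicate 1.

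Expressed per kb of exon, so that genes can be set side by side, the highest vehicle means of this set were those of Apln (23.8 CPM per kb), Eng (21.3), Cd34 (12.7), Podxl (11.9), Cdh5 (11.2) and Pecam1 (10.1). The receptors lay lower, with Flt1 at 3.42, Tie1 at 2.68, Kdr at 1.82 and Tek at 1.23 CPM per kb. At the low end were the transcription factor Sox17 at 0.261, Flt4 at 0.363 and Prox1 at 0.00316 CPM per kb.

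Most endothelial genes were lower in tumors that had received cisplatin, whether or not KW6002 was given. In whole tumors, fewer endothelial cells and less RNA per endothelial cell cannot be told apart. A gene was called when it had a Benjamini-Hochberg adjusted P below 0.05 over the 16665 genes tested and differed by 0.32 or more on the log2 scale, up or down. After cisplatin alone, 28 of the 39 tested genes were called lower and 1 higher, against 4.57% of all tested genes called lower and 6.01% called higher in that comparison. Cotreatment compared with vehicle gave the same counts, 28 lower and 1 higher, where 10.4% of all genes were called lower and 13.1% higher. Cotreatment compared with KW6002 gave 26 lower and 0 higher, where 10.7% of all genes were called lower. The libraries carry an earlier and a later run of code numbers, and with fewer tumors this comparison called 16 endothelial genes lower within the earlier codes (of 40 tested there, since Prox1 passed the filter in that subset and was not called, against 9.18% of all genes) and 15 of 39 within the later ones (against 4.37%). Over the 10 tumors given cisplatin against the 10 not given it, 30 genes were called lower and 1 higher, where 9.23% of all genes were called lower and 12.6% higher. The median log2 fold change of the 39 genes was -0.73 for cisplatin against vehicle, -0.65 for cotreatment against vehicle and -0.59 for cotreatment against KW6002. The medians over all tested genes were 0, -0.016 and -0.012 in the same order.

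Cisplatin against vehicle and cotreatment against KW6002 share no tumors, although both come from the same fit and its shared estimate of spread. In both, 22 endothelial genes were called lower, which is 78.6% of the 28 and 84.6% of the 26. Over all genes the corresponding shares were 75.7% and 32.3%, and 3.46% of all tested genes were called lower in both. For 7 of the 39 genes (Cdh5, Esam, Icam2, Ecscr, Sox7, S1pr1 and Dll4) every one of the 10 tumors given cisplatin lay below every one of the 10 others, an arrangement seen in 2.50% of all tested genes. In the opposite direction there was none among the endothelial genes, against 2.62% of all tested genes.

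**Figure D1:**
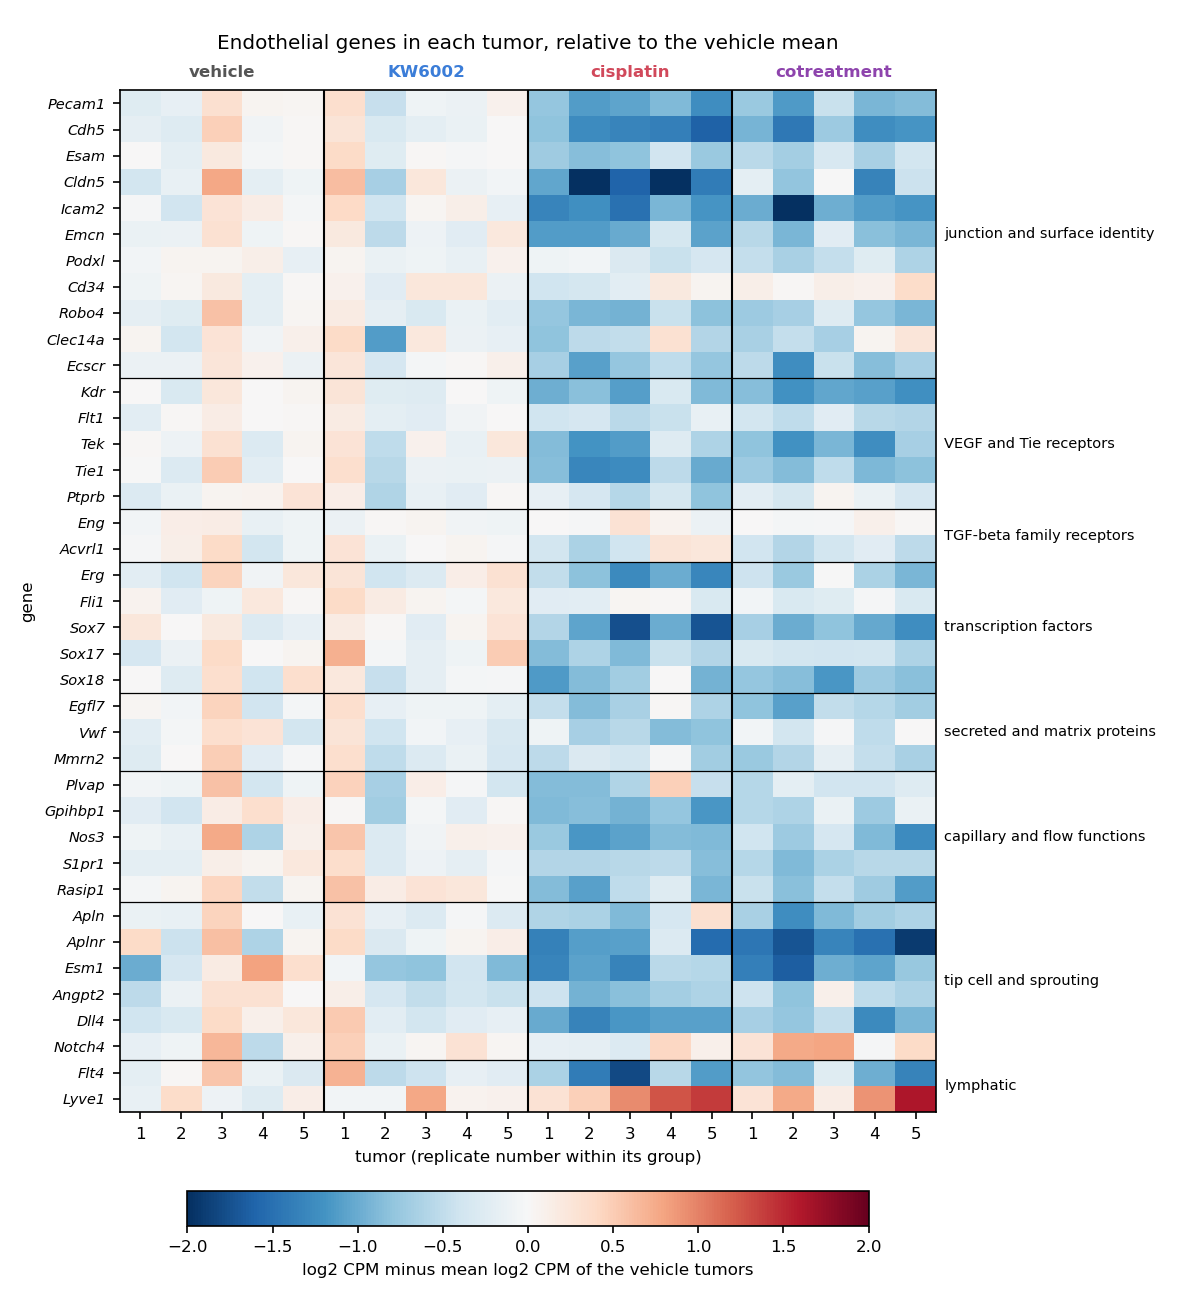
Log2 CPM of the 39 tested endothelial genes (rows, grouped by role) in each of the 20 tumors (columns, 5 per group), minus the mean of the vehicle tumors, with blue for lower and red for higher. Blue fills most rows of the 10 tumors given cisplatin, whereas Eng stays near or above 0 and Lyve1 is red. Cd34 and Notch4 lie on both sides of 0 after cisplatin alone, with Cd34 at -0.40 in cisplatin replicate 1.

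KW6002 without cisplatin gave no call among the 39 genes, as among all genes, of which 0% were called. At an unadjusted P under 0.05 there was 1 endothelial gene (Esm1) and 339 genes in all (2.03%), and DESeq2 also called 0 endothelial genes. The log2 fold changes ran from -0.68 (Esm1) to 0.23 (Rasip1), with a median of -0.05 and 26 of the 39 below 0. Without the 2 tumors holding fat RNA the median was -0.19 and 32 of the 39 were below 0, with 0 called. For VE-cadherin (Cdh5) the 95% interval of the difference was -0.42 to 0.25 and for Kdr it was -0.34 to 0.22 on the log2 scale.

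Averaged over the 39 genes, the level per tumor (mean log2 CPM relative to the vehicle mean) was -0.14, -0.14, 0.34, -0.09 and 0.03 in vehicle and 0.29, -0.33, -0.08, -0.06 and -0.05 in KW6002 tumors. It was -0.66, -0.81, -0.79, -0.40 and -0.70 after cisplatin and -0.53, -0.74, -0.40, -0.63 and -0.60 after cotreatment. The highest tumors given cisplatin, cisplatin replicate 4 and cotreatment replicate 3, both lay at -0.40, below the lowest of the others, KW6002 replicate 2 at -0.33. Vehicle replicate 3 and KW6002 replicate 1 stood highest of all. By role, the level after cisplatin was lowest for the junction and surface genes (-0.84 ± 0.14, SD, n = 5) and nearest to vehicle for the TGF-beta family receptors (-0.07 ± 0.19). The lymphatic genes Flt4 and Lyve1 moved in opposite directions, so their mean (-0.11 ± 0.36 after cisplatin and -0.05 ± 0.14 after cotreatment) describes neither. After cotreatment it was lowest for the tip cell genes (-0.73 ± 0.17) and the VEGF and Tie receptors (-0.69 ± 0.13), and stood at -0.20 ± 0.09 for the TGF-beta family receptors. The junction and surface genes stood at -0.64 ± 0.19 after cotreatment and their 2 arms overlapped. No test was made on these means.

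**Figure D2:**
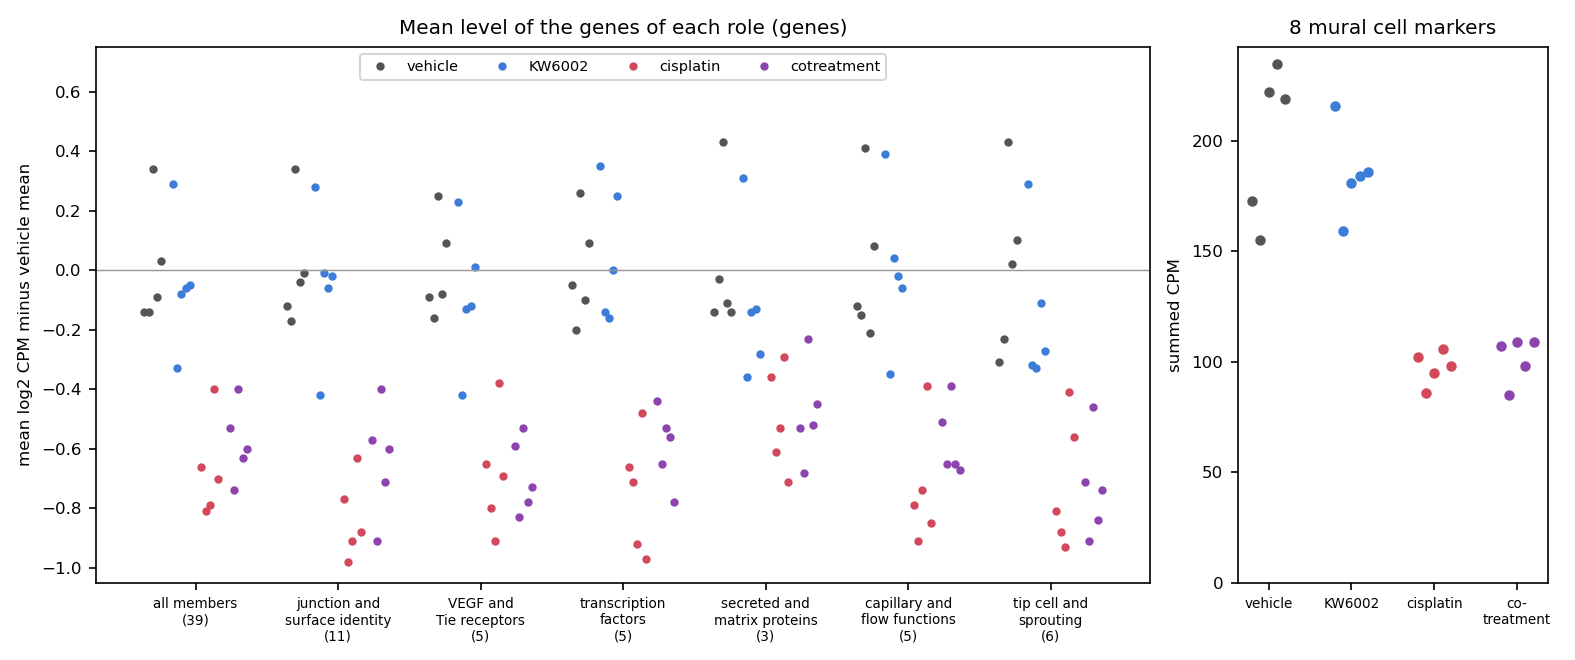
Left, mean log2 CPM minus the vehicle mean over all 39 tested genes and over the genes of 6 roles (number of genes in brackets), with 1 point per tumor; right, the summed CPM of 8 mural cell markers (Des left out) in each tumor. The cisplatin and cotreatment means of the 6 roles drawn lie between -0.84 and -0.48, the TGF-beta family receptors, which lay nearer to vehicle, and the lymphatic genes, whose 2 tested genes went in opposite directions, are not drawn, and the mural sum is 85.1 to 109 CPM with cisplatin and 155 to 235 CPM without.

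The sequences before the start sites were compared with those of all genes. RefSeq sequences (GRCm38.p6) were matched for 19 of the 40 genes, with 24 start sites among them. In the 250 bases before a start, 13 short motifs were searched on both strands, each a short form of a motif of a transcription factor family, among them the ETS family to which ERG and FLI1 belong. CAGGAA, which holds the GGAA core that ETS factors recognize, was present before at least 1 start of 12 of the 19 genes (63.2%), against 28.3% of the 27025 genes of the same table. The longer AACAGGAA, which contains it, was found for 2 of 19 (10.5%) against 2.5% of genes. Another ETS-type motif, CCGGAA, was found for 1 of 19 (5.3%) against 13.6%, and the SOX-type motifs AACAAT for 3 of 19 (15.8%) against 10.9% and ACAAAG for 5 of 19 (26.3%) against 18.6%. CACCC, the most frequent motif of the search, was found for 14 of 19 genes (73.7%) against 54.5%, and GGGCGG for 9 of 19 (47.4%) against 35.4%. TGTTTGC was found for 2 of 19 (10.5%) against 4.9%, and AGATAA for 1 of 19 (5.3%) against 11.4%. No member had TTCCTGGAA, which contains the reverse complement of CAGGAA and is found for 0.8% of genes. None had the motif TGTTTAC (3.5% of genes), the motif CACGTG (6.9%) or the motif TGAGTCA (5.2%). Cd34, Clec14a and Notch4, which were called in no comparison, have CAGGAA, whereas Eng, also called in no comparison, Prox1, which was not tested over the 20 tumors, and Kdr, Flt1, Flt4, Dll4 and Cldn5 have none in this window. Genes that were called and genes that were not were not compared by test. These are letter matches and not evidence of binding. The sequences of 5 genes called lower are printed to show the arrangement, 5′ to 3′ on the strand of the gene and ending at the base before the start site, with CAGGAA or its reverse complement TTCCTG in capitals. In Tek the matches begin 89 and 59 bases before the start, in Esm1 217 and 63, and in Apln 112, and Dll4 and Cldn5 are shown as genes without a match.
Tek (chr4:94739039-94739288, plus strand): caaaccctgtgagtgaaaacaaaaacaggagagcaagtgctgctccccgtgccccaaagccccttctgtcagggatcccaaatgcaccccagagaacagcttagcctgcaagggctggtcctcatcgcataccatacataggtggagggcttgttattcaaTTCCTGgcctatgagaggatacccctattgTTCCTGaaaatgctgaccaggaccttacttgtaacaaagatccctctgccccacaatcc
Esm1 (chr13:113209409-113209658, plus strand): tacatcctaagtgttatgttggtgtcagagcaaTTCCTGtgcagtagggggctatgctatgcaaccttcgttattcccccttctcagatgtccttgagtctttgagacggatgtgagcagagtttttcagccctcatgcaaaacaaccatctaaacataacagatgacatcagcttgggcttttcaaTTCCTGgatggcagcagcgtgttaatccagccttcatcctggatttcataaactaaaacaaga
Apln (chrX:48034854-48035103, minus strand): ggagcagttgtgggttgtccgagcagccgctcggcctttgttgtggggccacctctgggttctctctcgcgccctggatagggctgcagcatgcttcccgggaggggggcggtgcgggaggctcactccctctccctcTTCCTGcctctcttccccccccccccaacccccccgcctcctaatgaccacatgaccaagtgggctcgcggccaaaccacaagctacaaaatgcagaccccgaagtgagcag
Dll4 (chr2:119325534-119325783, plus strand): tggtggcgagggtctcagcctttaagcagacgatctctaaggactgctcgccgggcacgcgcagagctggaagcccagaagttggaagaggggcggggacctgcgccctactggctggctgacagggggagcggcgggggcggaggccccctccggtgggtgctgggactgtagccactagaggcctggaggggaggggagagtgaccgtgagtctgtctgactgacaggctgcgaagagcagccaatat
Cldn5 (chr16:18776597-18776846, plus strand): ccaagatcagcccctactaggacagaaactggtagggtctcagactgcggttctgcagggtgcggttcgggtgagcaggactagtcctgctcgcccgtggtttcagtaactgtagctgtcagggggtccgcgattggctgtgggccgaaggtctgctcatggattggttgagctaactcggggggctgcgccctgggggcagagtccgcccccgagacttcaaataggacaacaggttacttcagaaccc

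Of the 11 genes of junctions and surface identity, 8 were called lower after cisplatin, 8 after cotreatment against vehicle and 9 over all cisplatin tumors, and none was called higher than vehicle. Cdh5 (chr8:104101625-104144511 in GRCm38), which encodes VE-cadherin, the adherens junction protein of endothelium, measured 40.9, 38.6, 63.9, 44.1 and 47.2 CPM in vehicle and 55.5, 37.4, 40.6, 42.0 and 46.2 CPM in KW6002 tumors. It fell to 26.6, 19.2, 18.5, 17.9 and 15.0 CPM with cisplatin and 24.2, 17.1, 27.9, 19.6 and 20.3 CPM with cotreatment. The 2 sets of tumors did not overlap. The log2 fold change was -1.27 ± 0.16 (SE) after cisplatin (adjusted P = 4.5e-05) and -1.02 ± 0.16 for cotreatment against KW6002 (adjusted P = 8.8e-05), which left 41.4% and 49.2% of the level.

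Pecam1 (chr11:106654217-106750628), an adhesion molecule of endothelial junctions, was at 52.8, 55.8, 77.8, 64.7 and 64.1 CPM in vehicle and 78.7, 45.5, 59.1, 57.7 and 65.9 CPM in KW6002 tumors. Its values were 36.6, 28.8, 30.3, 33.7 and 26.2 CPM with cisplatin and 37.3, 28.4, 46.0, 33.2 and 34.1 CPM with cotreatment. Only cotreatment replicate 3 (46.0 CPM) reached above the lowest tumor without cisplatin (KW6002 replicate 2, 45.5 CPM). The log2 fold change was -1.02 ± 0.14 after cisplatin (adjusted P = 9.4e-05) and -0.78 ± 0.14 for cotreatment against KW6002 (adjusted P = 2.9e-04).

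Icam2, a surface ligand of leukocyte integrins, also separated the tumors completely. It stood at 4.77, 3.69, 5.84, 5.37 and 4.70 CPM in vehicle and 6.37, 3.64, 4.94, 5.25 and 4.30 CPM in KW6002 tumors. With cisplatin it was 1.89, 2.03, 1.66, 2.51 and 2.10 CPM and with cotreatment 2.37, 1.13, 2.42, 2.20 and 2.09 CPM, so that all 10 lay lower. Over the 10 against 10 tumors the log2 fold change was -1.26 ± 0.13 (adjusted P = 3.6e-07), and -1.26 ± 0.19 and -1.26 ± 0.19 in the 2 separate comparisons.

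Esam, another adhesion molecule of endothelial junctions, measured 17.6, 15.2, 20.1, 17.1 and 17.9 CPM in vehicle and 22.9, 14.8, 17.9, 17.2 and 17.5 CPM in KW6002 tumors. After cisplatin it was 10.7, 9.73, 10.0, 13.5 and 10.4 CPM and after cotreatment 12.1, 10.9, 14.0, 11.2 and 13.6 CPM. The sets were separate, with a smaller log2 fold change than for Cdh5, -0.62 ± 0.08 over all cisplatin tumors (adjusted P = 3.7e-06). Ecscr, a regulator of endothelial migration, was 11.5, 11.5, 14.7, 13.2 and 11.5 CPM in vehicle and 14.7, 9.83, 12.1, 12.6 and 13.3 CPM in KW6002 tumors. It was 7.81, 5.84, 7.26, 8.68 and 7.21 CPM with cisplatin and 8.56, 5.24, 9.07, 6.85 and 7.77 CPM with cotreatment, again without overlap (log2 fold change -0.75 ± 0.10, adjusted P = 4.0e-06).

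Emcn, a sialomucin of capillary and venous endothelium, measured 10.6, 10.7, 14.5, 11.1 and 11.9 CPM in vehicle and 13.3, 8.12, 10.9, 9.93 and 13.5 CPM in KW6002 tumors. Its values were 5.38, 5.38, 5.75, 9.17 and 5.54 CPM with cisplatin and 7.90, 6.12, 9.99, 6.55 and 6.15 CPM with cotreatment. Cisplatin replicate 4 and cotreatment replicate 3 overlapped the tumors without cisplatin, and the log2 fold change over all cisplatin tumors was -0.76 ± 0.12 (adjusted P = 4.6e-05). For Robo4, a guidance receptor that limits vessel leak, the values were 7.67, 7.28, 13.1, 7.62 and 8.93 CPM in vehicle and 9.70, 7.67, 7.03, 7.91 and 7.49 CPM in KW6002 tumors. They were 5.04, 4.57, 4.51, 6.35 and 4.91 CPM with cisplatin and 5.26, 5.46, 7.26, 5.04 and 4.59 CPM with cotreatment. Vehicle replicate 3 was the highest, and the log2 fold change was -0.67 ± 0.11 (adjusted P = 6.1e-05).

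Cldn5 (chr16:18776847-18778262), the tight junction claudin of endothelium, was the 1 endothelial gene called between the cisplatin arms, a call that did not hold in every setting. It measured 3.66, 4.25, 8.16, 4.10 and 4.47 CPM in vehicle and 7.21, 2.93, 5.54, 4.32 and 4.56 CPM in KW6002 tumors. With cisplatin alone it was 2.27, 0.863, 1.51, 1.01 and 1.75 CPM, below every tumor without cisplatin, and with cotreatment 4.09, 2.70, 4.67, 1.84 and 3.49 CPM, which overlaps both. The log2 fold change was -1.74 ± 0.30 after cisplatin (adjusted P = 7.3e-04), and -0.55 ± 0.29 after cotreatment, which missed the threshold (adjusted P = 0.14). Cotreatment was higher than cisplatin by 1.19 ± 0.30 (adjusted P = 0.025), the only endothelial gene called in that comparison, where 2.29% of all genes were called higher, so that 1 of 39 stood near the background. The test of whether KW6002 acted differently with and without cisplatin (interaction) did not pass for Cldn5 (log2 1.19 ± 0.42, adjusted P = 0.24). The call against cisplatin was lost when cisplatin replicate 3, cisplatin replicate 4, cotreatment replicate 1 or cotreatment replicate 3 was left out, with adjusted P between 0.057 and 0.083 and a log2 fold change between 1.04 and 1.20. No endothelial gene was called with no filter on low counts, with only the 2 groups in the fit or in the later codes alone.

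The remaining surface genes moved less. Podxl, a sialomucin of the vessel lumen, was not called after cisplatin (log2 fold change -0.24 ± 0.08, adjusted P = 0.057) and was lower after cotreatment than with KW6002 (-0.44 ± 0.08, adjusted P = 3.8e-04). Over all cisplatin tumors it fell by 0.34, close to the fold limit, and the call was lost without KW6002 replicate 5, cisplatin replicate 4, cisplatin replicate 5, cotreatment replicate 2 or cotreatment replicate 5, at log2 values from -0.32 to -0.30. Cd34, shared by endothelium and fibroblasts, measured 92.9 ± 9.40 CPM (SD, n = 5) in vehicle, 96.1 ± 13.2 in KW6002, 85.1 ± 15.6 in cisplatin and 102 ± 9.23 CPM in cotreatment tumors, and was called in no comparison. Clec14a, a lectin-like receptor of tumor endothelium, was not called either, with a wide 95% interval of -0.65 to 0.09 over all cisplatin tumors.

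**Figure D3:**
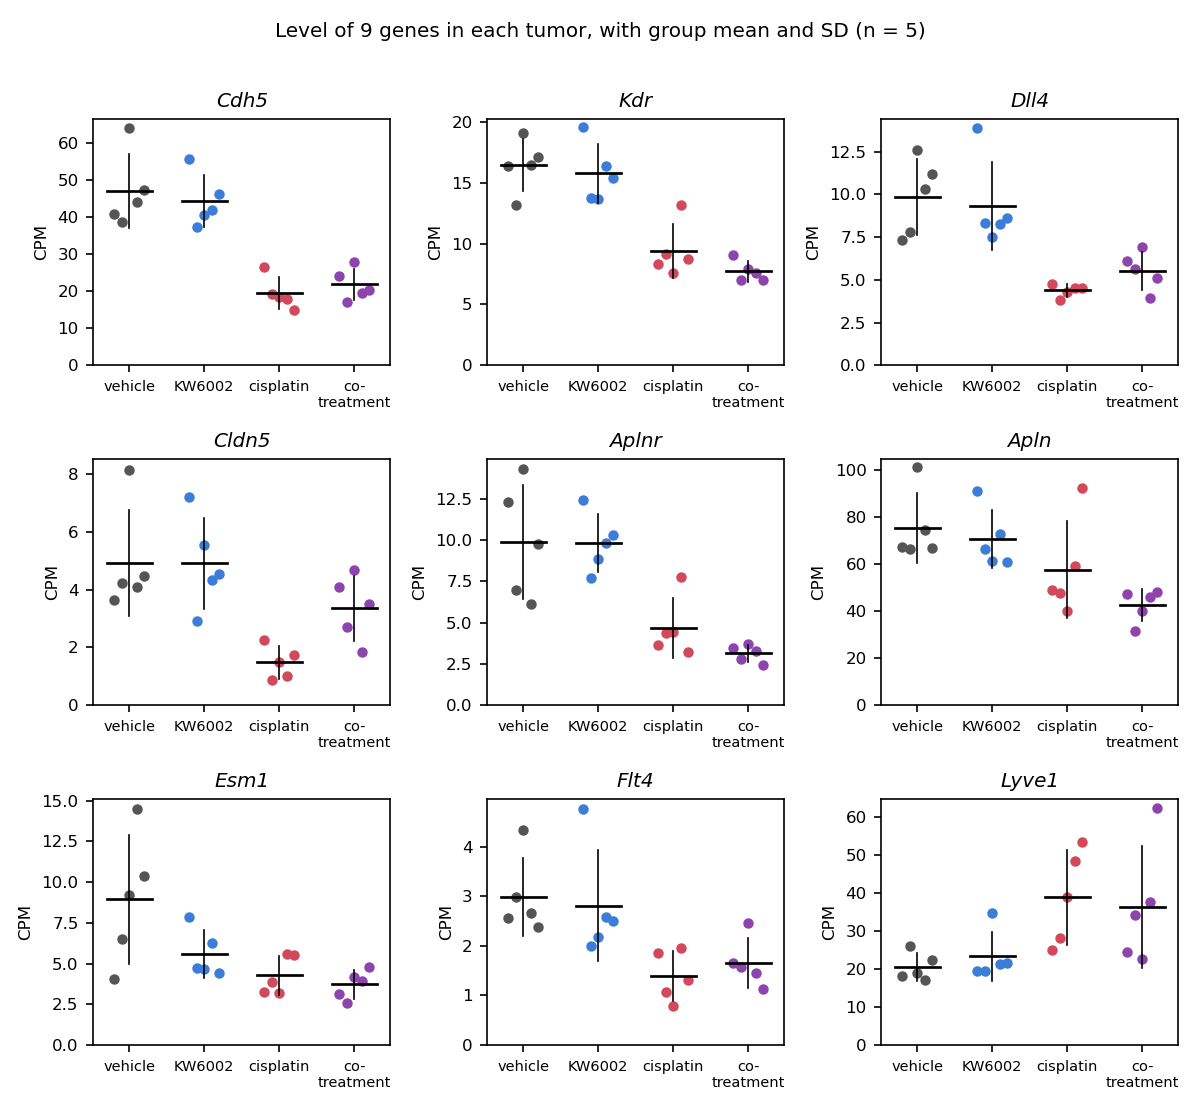
Level in CPM of 9 endothelial genes in each tumor (points), with the group mean (horizontal line) and SD (vertical line), n = 5 tumors per group. Cdh5 and Dll4 separate the tumors with and without cisplatin, Cldn5 is lowest after cisplatin alone, and Lyve1 is highest in the groups given cisplatin.

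All 5 VEGF and Tie receptor genes were called lower after cisplatin, and 4 of the 5 in each of the other comparisons of cisplatin with none. Kdr (chr5:75932827-75978458), which encodes VEGFR2, the main signaling receptor for VEGF, measured 16.4, 13.2, 19.1, 16.5 and 17.1 CPM in vehicle and 19.6, 13.8, 13.7, 16.4 and 15.4 CPM in KW6002 tumors. It was 8.29, 9.12, 7.59, 13.2 and 8.76 CPM with cisplatin and 9.05, 7.03, 7.91, 7.62 and 6.99 CPM with cotreatment. Only cisplatin replicate 4 came level with the lowest vehicle tumor, both at 13.2 CPM. Kdr changed by -0.81 ± 0.14 on the log2 scale after cisplatin (adjusted P = 4.5e-04) and -1.03 ± 0.14 for cotreatment against KW6002 (adjusted P = 1.1e-05). Between the arms the difference was -0.28 ± 0.14 with a 95% interval of -0.57 to 0.00 (adjusted P = 0.22).

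Flt1, which encodes VEGFR1, a receptor that also traps VEGF, moved less than Kdr. It measured 39.7, 46.7, 51.0, 46.5 and 47.1 CPM in vehicle and 51.3, 40.2, 39.2, 43.8 and 46.3 CPM in KW6002 tumors. With cisplatin it was 34.9, 36.5, 31.6, 33.6 and 41.3 CPM and with cotreatment 36.0, 32.3, 39.4, 31.2 and 30.5 CPM. The tumors with and without cisplatin overlapped between 39.2 and 41.3 CPM, and the log2 fold change over all cisplatin tumors was -0.38 ± 0.06 (adjusted P = 6.7e-05).

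Tek encodes TIE2, the angiopoietin receptor, and measured 5.80, 5.34, 7.12, 4.73 and 5.93 CPM in vehicle and 7.0, 4.0, 6.11, 5.16 and 6.73 CPM in KW6002 tumors. It was 3.11, 2.46, 2.63, 4.78 and 3.73 CPM with cisplatin and 3.28, 2.45, 3.0, 2.39 and 3.59 CPM with cotreatment. Cisplatin replicate 4 overlapped the tumors without cisplatin, and the log2 fold change was -0.79 ± 0.18 after cisplatin and -0.98 ± 0.18 for cotreatment against KW6002 (adjusted P = 0.0057 and 3.5e-04). Its partner Tie1 measured 12.9, 10.6, 18.3, 11.1 and 12.9 CPM in vehicle and 16.3, 8.80, 11.9, 11.8 and 12.0 CPM in KW6002 tumors. With cisplatin Tie1 was 7.14, 5.23, 5.38, 8.92 and 6.40 CPM and with cotreatment 7.76, 7.08, 9.07, 6.91 and 7.30 CPM, with log2 fold changes of -1.0 ± 0.17 and -0.67 ± 0.17 (adjusted P = 5.0e-04 and 0.0038). Ptprb, which encodes the phosphatase VE-PTP that acts on TIE2, fell after cisplatin alone (-0.44 ± 0.13, adjusted P = 0.028) and was -0.04 ± 0.13 for cotreatment against KW6002 (adjusted P = 0.84). The difference between these responses was not called (interaction 0.40 ± 0.19, adjusted P = 0.40), and the cisplatin call was lost without vehicle replicate 3, 4 or 5 or cisplatin replicate 3 or 5.

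Neither of the 2 TGF-beta family receptors was called over all cisplatin tumors. Eng, the co-receptor endoglin, was at 86.2 ± 8.20 CPM in vehicle, 83.9 ± 4.42 in KW6002, 89.0 ± 9.56 in cisplatin and 86.7 ± 3.37 CPM in cotreatment tumors. Its log2 fold change over all cisplatin tumors was 0.05 ± 0.05, and the 95% interval of -0.05 to 0.15 excludes a change of the size seen for Kdr. Eng shares 61 exon bases with Fpgs on the opposite strand, a gene with 30982 counts against 56412 for Eng, and reads of the shared part cannot be assigned with certainty. Acvrl1, the receptor ALK1, was not called after cisplatin (-0.16 ± 0.16) and was lower after cotreatment than with KW6002 (-0.46 ± 0.16, adjusted P = 0.027). That call was lost without KW6002 replicate 1, KW6002 replicate 4, cotreatment replicate 2 or cotreatment replicate 5. Cotreatment against vehicle also called Acvrl1 lower (-0.43), in 13 of the 20 fits that left out 1 tumor. Over all cisplatin tumors it was at -0.31, against a fold limit of 0.32, and 5 of the 20 fits called it lower.

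Of the 5 transcription factor genes, 4 were called lower after cisplatin and all 5 in cotreatment against KW6002. Erg, an ETS factor that maintains endothelial identity, measured 4.35, 3.80, 6.86, 4.79 and 5.90 CPM in vehicle and 6.03, 3.80, 4.11, 5.51 and 6.22 CPM in KW6002 tumors. It was 3.55, 2.82, 2.03, 2.48 and 2.01 CPM with cisplatin and 3.77, 2.98, 4.98, 3.22 and 2.62 CPM with cotreatment. All 5 cisplatin tumors were below all 5 vehicle tumors, whereas cotreatment overlapped. Erg changed by -1.0 ± 0.21 after cisplatin (adjusted P = 0.0025) and -0.55 ± 0.20 for cotreatment against KW6002 (adjusted P = 0.040). The second call did not survive leaving out KW6002 replicate 1, 4 or 5, or cotreatment replicate 1, 2, 4 or 5, with adjusted P up to 0.10. Fli1, an ETS factor shared with leukocytes, was -0.13 ± 0.10 after cisplatin (adjusted P = 0.39) and -0.35 ± 0.10 for cotreatment against KW6002 (adjusted P = 0.011). The latter sat near the fold limit and was not called without KW6002 replicate 1, cotreatment replicate 2 or cotreatment replicate 5.

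The SOXF factors Sox7, Sox17 and Sox18 act together in arterial and lymphatic differentiation, and were all lower after cisplatin. Sox7 measured 3.28, 2.81, 3.23, 2.31 and 2.51 CPM in vehicle and 3.17, 2.87, 2.37, 2.91 and 3.40 CPM in KW6002 tumors. It was 1.86, 1.32, 0.787, 1.38 and 0.804 CPM with cisplatin and 1.74, 1.38, 1.57, 1.35 and 1.15 CPM with cotreatment, without overlap. Its log2 fold change over all cisplatin tumors was -1.12 ± 0.14 (adjusted P = 2.8e-06), and those of Sox17 and Sox18 were -0.70 ± 0.14 and -0.76 ± 0.15 (adjusted P = 3.7e-04 and 2.8e-04). The call of Sox18 after cisplatin alone was lost without vehicle replicate 3 or 5 or cisplatin replicate 5.

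Among the secreted and matrix proteins, Egfl7, a secreted protein of growing vessels whose gene also hosts miR-126, was lower in both arms (-0.51 ± 0.16 after cisplatin, adjusted P = 0.035, and -0.69 ± 0.16 for cotreatment against KW6002, adjusted P = 0.0024). The cisplatin call was lost on leaving out any 1 of vehicle replicates 1, 2, 3 or 5 or cisplatin replicates 1, 2, 3 or 5. Vwf, the clotting protein stored in endothelium, fell after cisplatin (-0.60 ± 0.17, adjusted P = 0.017) and was -0.06 ± 0.16 for cotreatment against KW6002 (adjusted P = 0.81). The cisplatin call of Vwf was lost without vehicle replicate 3, vehicle replicate 4 or cisplatin replicate 4. Over all cisplatin tumors Vwf was called lower too, a call kept in 11 of the 20 fits that left out 1 tumor. Its log2 fold change ran from -0.40 to -0.27 over those 20 fits. Mmrn2, a matrix ligand of CLEC14A, was -0.39 ± 0.17 after cisplatin (adjusted P = 0.11) and passed in cotreatment against vehicle (-0.54 ± 0.17, adjusted P = 0.015), though not without vehicle replicate 3. Egfl7 shares 64 exon bases with Agpat2 on the opposite strand, a gene with 26084 counts against 11645 for Egfl7. It also shares 264 exon bases with Gm20532 on the same strand, for which the counts hold no entry.

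Among the genes of capillaries and of the response to flow, 4 of 5 were called lower after cisplatin and the fifth was Plvap. S1pr1, the sphingosine-1-phosphate receptor that stabilizes junctions, measured 20.8, 20.8, 25.8, 24.7 and 27.4 CPM in vehicle and 30.2, 19.6, 22.2, 20.9 and 23.3 CPM in KW6002 tumors. It was 15.7, 15.8, 16.1, 16.4 and 13.2 CPM with cisplatin and 15.9, 12.8, 15.3, 16.1 and 16.2 CPM with cotreatment. The sets did not overlap and the log2 fold changes in the arms were close, -0.63 ± 0.11 and -0.61 ± 0.11 (adjusted P = 5.9e-04 and 2.2e-04). Rasip1, which is needed for vessel lumens, measured 2.87, 3.06, 4.02, 2.09 and 3.07 CPM in vehicle and 4.45, 3.29, 3.61, 3.46 and 2.93 CPM in KW6002 tumors. With cisplatin it was 1.59, 1.37, 2.06, 2.45 and 1.55 CPM and with cotreatment 2.15, 1.63, 2.11, 1.79 and 1.34 CPM. Vehicle replicate 4 overlapped the cisplatin tumors, and the log2 fold change over all cisplatin tumors was -0.86 ± 0.13 (adjusted P = 2.8e-05).

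Nos3, the endothelial nitric oxide synthase, fell by 1.02 after cisplatin and by 0.80 for cotreatment against KW6002 on the log2 scale (adjusted P = 0.0032 and 0.0065). Its exons share 294 bases with Atg9b on the opposite strand, a gene with 102955 counts against 3056 for Nos3. They share 1040 bases with the antisense transcript Gm15587, which had 140 counts. Because the strand setting of the counting is not stated, reads of the shared parts cannot be assigned with certainty, which also holds for Egfl7. Rasip1 likewise shares exon bases with Izumo1 and with antisense transcripts, all of which had fewer counts, and Cd34, Ecscr, Acvrl1, Sox17 and Dll4 share exon bases with genes of fewer counts on the opposite strand. Gpihbp1, which anchors lipoprotein lipase in capillaries, measured 17.2 ± 3.47 CPM in vehicle, 15.1 ± 2.87 in KW6002, 8.90 ± 0.872 in cisplatin and 12.6 ± 2.46 CPM in cotreatment tumors. It was lower after cisplatin (-0.95 ± 0.15, adjusted P = 3.5e-04), over all cisplatin tumors (-0.60 ± 0.11, adjusted P = 1.5e-04) and after cotreatment against vehicle (-0.44 ± 0.15, adjusted P = 0.028), the last in 14 of the 20 fits that left out 1 tumor. It was not called for cotreatment against KW6002 (-0.26 ± 0.15, adjusted P = 0.20). The difference between the arms just missed the threshold (0.50 ± 0.15, adjusted P = 0.053). Plvap, which forms the diaphragms of fenestrated capillaries, was -0.36 ± 0.17 over all cisplatin tumors (adjusted P = 0.11), with cisplatin replicate 4 at 18.5 CPM against 7.24 to 9.62 CPM in the rest of its group. The fold change of Plvap varied with single tumors, whereas its missing call seldom did. Over the 20 fits that left out 1 tumor, its log2 fold change ran from -0.51 to -0.26 over all cisplatin tumors. After cisplatin alone it ran from -0.71 to -0.21, and in each comparison 1 of the 20 fits called Plvap lower.

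**Figure D4:**
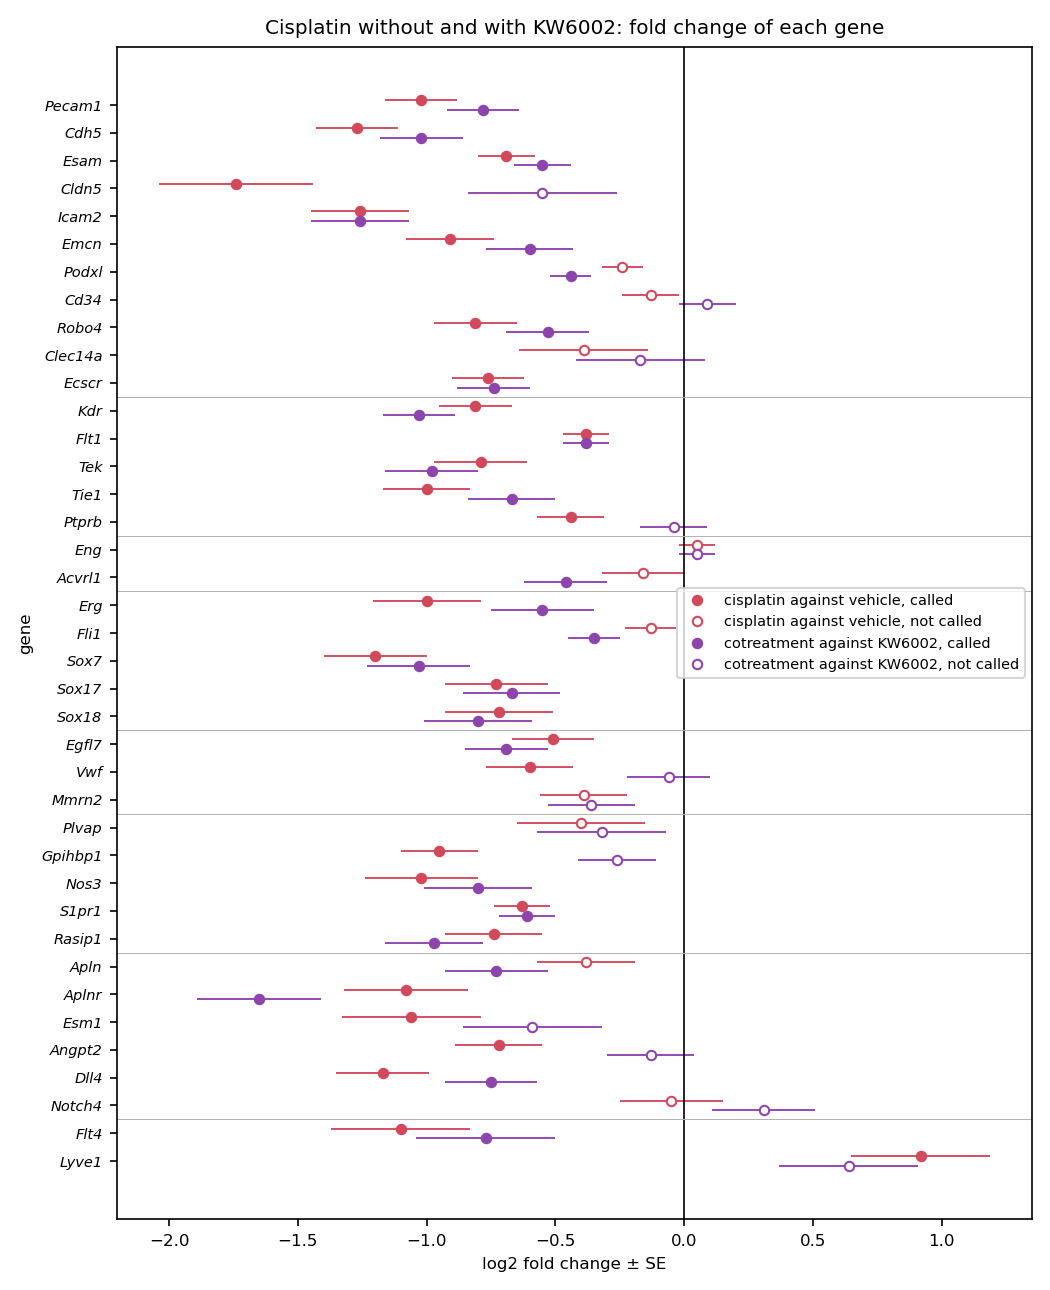
Log2 fold change of each tested endothelial gene, with its SE, for cisplatin against vehicle (red) and cotreatment against KW6002 (purple), which share no tumors; filled points passed the call rule. Most points lie left of 0 in both comparisons, with Eng, Cd34 and Notch4 near 0 or to its right and Lyve1 to its right.

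Tip cell and sprouting genes gave 4 of 6 called lower after cisplatin, 5 of 6 in cotreatment against vehicle and 3 of 6 in cotreatment against KW6002. Aplnr (chr2:85136225-85139923), the apelin receptor, measured 12.3, 6.96, 14.3, 6.14 and 9.78 CPM in vehicle and 12.4, 7.71, 8.83, 9.80 and 10.3 CPM in KW6002 tumors. It was 3.65, 4.34, 4.42, 7.76 and 3.19 CPM with cisplatin and 3.43, 2.78, 3.72, 3.30 and 2.43 CPM with cotreatment. All 5 cotreatment tumors lay below all tumors without cisplatin, and cisplatin replicate 4 overlapped them. The log2 fold change was -1.08 ± 0.24 after cisplatin (adjusted P = 0.0040) and -1.65 ± 0.24 for cotreatment against KW6002 (adjusted P = 3.5e-05), which left 47.2% and 32.0% of the level. The difference between the cisplatin arms was not called (-0.58 ± 0.24, adjusted P = 0.16).

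Apln encodes apelin, the ligand of that receptor, made by tip cells and by some tumor cells. It measured 67.0, 66.5, 101, 74.2 and 66.8 CPM in vehicle and 90.8, 66.5, 61.4, 72.8 and 60.9 CPM in KW6002 tumors. With cisplatin it was 49.0, 47.7, 39.9, 58.9 and 92.2 CPM and with cotreatment 47.1, 31.3, 40.2, 45.8 and 48.2 CPM. Cisplatin replicate 5 lay above every tumor without cisplatin except vehicle replicate 3, and all 5 cotreatment tumors lay below all of those. The call was made for cotreatment against KW6002 (-0.73 ± 0.20, adjusted P = 0.0073) and not for cisplatin (-0.38 ± 0.19, adjusted P = 0.19). Without cisplatin replicate 5, Apln was called after cisplatin too, at -0.61 (adjusted P = 0.014).

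Dll4 (chr2:119325784-119335962), the Notch ligand of tip cells, measured 7.32, 7.81, 12.6, 10.3 and 11.2 CPM in vehicle and 13.9, 8.32, 7.50, 8.26 and 8.64 CPM in KW6002 tumors. It was 4.77, 3.81, 4.30, 4.54 and 4.51 CPM with cisplatin and 6.09, 5.65, 6.92, 3.96 and 5.09 CPM with cotreatment. No tumor given cisplatin reached the lowest of the others, and the log2 fold change was -1.17 ± 0.18 after cisplatin and -0.75 ± 0.18 for cotreatment against KW6002 (adjusted P = 1.6e-04 and 0.0022). Notch4, an endothelial Notch receptor, did not follow its ligand, with 9.63 ± 3.10, 10.3 ± 1.74, 9.30 ± 1.95 and 12.8 ± 2.97 CPM in vehicle, KW6002, cisplatin and cotreatment tumors. It was called in no comparison, and its 95% interval over all cisplatin tumors was -0.16 to 0.42.

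Esm1, a proteoglycan of tip cells that VEGF induces, varied widely among vehicle tumors, with 4.08, 6.50, 9.21, 14.5 and 10.4 CPM. In KW6002 tumors it was 7.83, 4.74, 4.68, 6.28 and 4.41 CPM. With cisplatin it measured 3.25, 3.86, 3.21, 5.61 and 5.51 CPM and with cotreatment 3.13, 2.56, 4.16, 3.94 and 4.80 CPM. Vehicle replicate 1 lay within the range of the cisplatin tumors, and the log2 fold change was -1.06 ± 0.27 after cisplatin (adjusted P = 0.012), -1.27 ± 0.27 for cotreatment against vehicle (adjusted P = 0.0013) and -0.59 ± 0.27 for cotreatment against KW6002 (adjusted P = 0.10). Angpt2, an angiopoietin that loosens vessels by competing for TIE2, measured 16.5, 22.0, 29.4, 29.5 and 23.8 CPM in vehicle and 25.7, 18.8, 16.7, 18.3 and 17.5 CPM in KW6002 tumors. With cisplatin it was 17.8, 12.2, 13.2, 14.8 and 15.5 CPM and with cotreatment 17.7, 13.6, 25.4, 16.7 and 15.4 CPM. It fell after cisplatin (-0.72 ± 0.17, adjusted P = 0.0072) and over all cisplatin tumors (-0.43 ± 0.12, adjusted P = 0.0076), and for cotreatment against KW6002 it was -0.13 ± 0.17 (adjusted P = 0.60). For cotreatment against vehicle it was called at -0.45 ± 0.17 (adjusted P = 0.045), a call kept in only 5 of the 20 fits that left out 1 tumor.

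The 2 tested lymphatic genes went in opposite directions. Flt4, which encodes VEGFR3, the receptor of lymphatic endothelium and of sprouting blood vessels, measured 2.56, 2.99, 4.34, 2.67 and 2.38 CPM in vehicle and 4.76, 2.0, 2.18, 2.59 and 2.50 CPM in KW6002 tumors. It was 1.86, 1.07, 0.787, 1.96 and 1.32 CPM with cisplatin and 1.66, 1.57, 2.46, 1.46 and 1.12 CPM with cotreatment. Cisplatin lay below vehicle without overlap (-1.10 ± 0.27, adjusted P = 0.0091). Cotreatment against KW6002 was -0.77 ± 0.27 (adjusted P = 0.032), a call that was lost without KW6002 replicate 1 or cotreatment replicate 1, 2, 4 or 5.

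Lyve1 (chr7:110850607-110863239), a hyaluronan receptor of lymphatic endothelium and of some macrophages, was the only gene of the set called higher with cisplatin than without. It measured 18.3, 26.1, 18.9, 17.0 and 22.4 CPM in vehicle and 19.5, 19.5, 34.8, 21.3 and 21.5 CPM in KW6002 tumors. With cisplatin it was 24.9, 28.3, 39.1, 48.6 and 53.5 CPM and with cotreatment 24.5, 34.3, 22.6, 37.8 and 62.5 CPM. Values ranged widely within the cisplatin arms and overlapped those without cisplatin. The log2 fold change was 0.92 ± 0.27 after cisplatin (adjusted P = 0.027), 0.82 ± 0.27 for cotreatment against vehicle (adjusted P = 0.025) and 0.78 ± 0.19 over all cisplatin tumors (adjusted P = 0.0032). For cotreatment against KW6002 it was 0.64 ± 0.27 (adjusted P = 0.074). The call after cisplatin was lost without vehicle replicate 1, 3 or 4 or cisplatin replicate 4 or 5, and that of cotreatment against vehicle without vehicle replicate 1, 3 or 4 or cotreatment replicate 5. Of 7 macrophage markers, Mrc1 was called higher over all cisplatin tumors (0.56 ± 0.11, adjusted P = 2.9e-04), with 307 ± 56.8 CPM in vehicle and 479 ± 112 CPM in cisplatin tumors, and 6 were not called. With 12.6% of all genes called higher, 1 of 7 stood near the background. Csf1r, a growth factor receptor of macrophages, went the other way with cotreatment, at -0.32 ± 0.11 against vehicle (adjusted P = 0.033) and -0.43 ± 0.11 against KW6002 (adjusted P = 0.0057). Their summed level was 1150.4 to 1621 CPM in vehicle, 1189 to 1489 in KW6002, 1270.2 to 2252 in cisplatin and 1268 to 1635 CPM in cotreatment tumors. The part of macrophages in the Lyve1 level was not tested.

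Prox1, the transcription factor that defines lymphatic endothelium, was nearly absent. The 20 libraries held 32 counts of it, of which 13 were in KW6002 replicate 1, and the other tumors had 0 to 3. A count of 0 allows up to 3 counts, which covers counting error only. Prox1 did not pass the filter over the 20 tumors, so its differences between the groups were not tested there.

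Between cotreatment and cisplatin, 9 endothelial genes had an unadjusted P under 0.05, and 23.3% of all genes did, so the count stood at the background. The 1 called was Cldn5. The median log2 difference of the 39 genes was 0.12, against -0.03 in the later codes alone, so its sign was not kept in every setting. It was 0.10 in the earlier codes alone, 0.05 without tumors holding skeletal muscle RNA and 0.12 without tumors holding fat RNA. For several genes the 95% interval of this difference was narrow, as for S1pr1 (-0.25 to 0.21), Flt1 (-0.26 to 0.11) and Esam (-0.05 to 0.42), and for others it was wide, as for Esm1 (-0.78 to 0.37) and Flt4 (-0.33 to 0.82). The interaction test called 0 of the 39, where 0.066% of all genes were called. At an unadjusted P under 0.05 it held 5 of the 39, against 12.2% of all genes, which is again near the background, and DESeq2 called 0.

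Factors that act on these receptors were looked at in a list of 15 angiogenic ligands and co-receptors, of which 2 were called higher and 4 lower over all cisplatin tumors. Over all genes 12.6% were called higher and 9.23% lower in that comparison, so the count called higher stood near the background. Vegfa, the main VEGF, was not called (-0.05 ± 0.20, adjusted P = 0.86) and spread widely after cisplatin (147 ± 89.3 CPM against 127 ± 15.2 in vehicle). Angpt1, the angiopoietin that activates TIE2, rose from 2.49 ± 0.319 CPM in vehicle to 4.33 ± 1.21 with cisplatin and 5.80 ± 1.34 CPM with cotreatment (1.19 ± 0.15 over all cisplatin tumors, adjusted P = 2.5e-06). Fgf2, a growth factor for endothelium, rose by 0.45 ± 0.08 (adjusted P = 1.9e-04). It was not called after cisplatin alone (0.19 ± 0.12, adjusted P = 0.28) and was higher with cotreatment than with cisplatin (0.52 ± 0.12, adjusted P = 0.012). Pdgfb, with which endothelium recruits pericytes, was lower (-1.31 ± 0.14, adjusted P = 5.6e-07), as were the VEGF co-receptors Nrp1 (-0.42 ± 0.06, adjusted P = 8.6e-06) and Nrp2 (-0.78 ± 0.06, adjusted P = 7.6e-09). Nrp1 was not called after cisplatin alone (-0.24 ± 0.08, below the fold limit, adjusted P = 0.045) and was lower with cotreatment than with cisplatin (-0.41 ± 0.08, adjusted P = 0.0061). Nrp1 and Nrp2 are also made by many tumor cells.

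Of 8 Notch pathway genes 7 were tested, and 3, the target genes Heyl, Hes1 and Hey1, were called lower over all cisplatin tumors. Heyl fell by 1.38 (adjusted P = 3.0e-05), Hes1 by 0.46 (adjusted P = 0.015) and Hey1 by 0.51 (adjusted P = 0.044) on the log2 scale. Heyl was also called in each arm, whereas Hes1 and Hey1 were called in neither arm alone. For short lists such as the arterial and venous, inflamed endothelium and inhibitor genes, a single call stands near the background of 12.6% of all genes called higher and 9.23% called lower. Of 7 arterial and venous genes, the arterial connexin Gja5 was lower (-0.60 ± 0.15, adjusted P = 0.0022) and 6 were not called. Gja5 was not called after cisplatin alone (-0.32 ± 0.20, adjusted P = 0.29), and its difference between the arms was not called either (-0.54 ± 0.21, adjusted P = 0.12). Of 4 genes of inflamed endothelium, Vcam1, an adhesion molecule for leukocytes, was lower (-0.44 ± 0.07, adjusted P = 3.5e-05) and 3 were not called. After cisplatin alone Vcam1 was not called (-0.28 ± 0.10, adjusted P = 0.051), and it was lower with cotreatment than with cisplatin (-0.33 ± 0.10, adjusted P = 0.045). Of 7 inhibitors of angiogenesis, Vash1, which endothelium makes in response to VEGF, was lower (-1.41 ± 0.15, adjusted P = 4.4e-07), as was the chemokine Cxcl10 (-2.57 ± 0.30, adjusted P = 3.2e-06), which was lower still with cotreatment than with cisplatin (-1.64 ± 0.43, adjusted P = 0.032). The protease Adamts1 was higher (0.87 ± 0.10, adjusted P = 2.2e-06), at 249 ± 30.9 CPM in vehicle, 305 ± 19.5 with cisplatin and 615 ± 177 CPM with cotreatment. It was not called after cisplatin alone (0.30 ± 0.14, adjusted P = 0.17) and was higher with cotreatment than with cisplatin (1.01 ± 0.14, adjusted P = 0.0010).

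Markers of the cells and blood around the endothelium were set against the same shares of all genes. Of 9 mural cell markers 7 were called lower over all cisplatin tumors, among them Rgs5 (-1.16 ± 0.11, adjusted P = 2.1e-07), Mcam (-1.07 ± 0.11, adjusted P = 7.4e-07) and Abcc9 (-0.80 ± 0.09, adjusted P = 6.9e-07), and none higher. Abcc9 was at -1.07 ± 0.13 for cisplatin against vehicle and -0.53 ± 0.13 for cotreatment against KW6002, and was higher with cotreatment than with cisplatin (0.53 ± 0.13, adjusted P = 0.017), while its interaction was not called (adjusted P = 0.20). Without Des, which skeletal muscle also makes, their sum was 155 to 235 CPM in vehicle, 159 to 216 in KW6002, 86.1 to 106 in cisplatin and 85.1 to 109 CPM in cotreatment tumors. All 5 red blood cell markers were called lower. Their summed level was 25.9 to 117 CPM in vehicle and 25.6 to 50.5 CPM in KW6002 tumors, and 0 to 0.0613 CPM with cisplatin and 0.0341 to 0.110 CPM with cotreatment, where Hbb-bt had 0 counts in all 10 tumors. The 5 leukocyte markers were mixed, with Laptm5 higher (0.40 ± 0.07, adjusted P = 1.0e-04) and Ptprc (-0.61 ± 0.07, adjusted P = 1.5e-06) and Coro1a (-0.44 ± 0.11, adjusted P = 0.0023) lower. Cd53 and Itgb2 were not called. Laptm5 was called after cisplatin alone and not in cotreatment against KW6002, and Coro1a the other way round, while neither was called between the arms. Of 6 platelet markers 3 were tested, with Itga2b higher and Ppbp lower, and of 7 fibroblast markers Pi16 was higher and Lum lower, counts of 1 in each direction that stand near the background for the fibroblasts and rest on 3 genes for the platelets. No fat or skeletal muscle marker was called. The part of these cells in the endothelial gene levels was not tested.

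Leaving out the 5 tumors with skeletal muscle RNA, a choice made after seeing the data, left 2 cisplatin tumors and 13 endothelial genes called lower after cisplatin, against 2.68% of all genes, with a median log2 fold change of -0.66 over the 39. Over all remaining cisplatin tumors 29 genes were called lower and 1 higher, with a median of -0.59, where 8.55% of all genes were called lower and 12.2% higher. Leaving out the 2 tumors with fat RNA, also chosen afterwards, left 27 lower and 1 higher, with a median of -0.63, where 8.48% of all genes were called lower and 12.1% higher.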

How the data were processed

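The labels and the study's methods describe stranded poly(A) libraries, sequenced as single-end reads, aligned to mm10 with STAR and counted per Ensembl gene with HTSeq 0.6.1p1. The deposited table holds raw counts, unnormalized. Symbols, exon lengths and positions came from GENCODE vM21 (GRCm38).

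Counts were filtered with filterByExpr by group, which kept 16665 genes with 99.9% of counts, scaled by TMM and tested with edgeR 4.0.16 (robust quasi-likelihood, 4 group means, 20 tumors, R 4.3.3). Tests are two-sided and P values were Benjamini-Hochberg adjusted over all tested genes. The study's fold limit (0.32) was used. CPM use TMM-scaled library sizes. Levels relative to vehicle use log2 CPM with a prior count of 2. SE comes from the quasi-likelihood F. The labels name no animal behind each tumor, so P values measure the spread between these tumors. The members, gene lists, motifs and tests were chosen with earlier results of these data known. Values per tumor are given for 11 genes fixed by name and the 12 further called genes with the smallest adjusted P, and for Cldn5, which was added after its values were seen. The genes named from other lists are the called ones with the smallest adjusted P (up to 3 per direction), and Vegfa was added. Alternatives included DESeq2 1.42.0.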

Additional observations from a re-analysis of the deposited data

Results flagged for a closer look

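Among 100 sets of 5 tumors (the 24 genes given per tumor, Cldn5 among them, and the mean level of the endothelial genes, in 4 groups), 16 held a tumor far from the other 4. In a single set chance gives this in about 5% of cases, but the sets share the same 20 tumors and genes that move together, so 16 of 100 cannot be read against that rate. Cisplatin replicate 4 was the high tumor of its group for Kdr (13.2 CPM, others 7.59 to 9.12), Aplnr (7.76, others 3.19 to 4.42), Esam (13.5, others 9.73 to 10.7), Emcn (9.17, others 5.38 to 5.75) and Robo4 (6.35, others 4.51 to 5.04). KW6002 replicate 1, which also held fat RNA, was the high tumor for Angpt2 (25.7 CPM, others 16.7 to 18.8), Dll4 (13.9, others 7.50 to 8.64), Flt4 (4.76, others 2.00 to 2.59) and Prox1 (0.404, others 0 to 0.0362). Vehicle replicate 3 was high for Apln (101 CPM, others 66.5 to 74.2), Robo4 (13.1, others 7.28 to 8.93) and Cldn5 (8.16, others 3.66 to 4.47). Cotreatment replicate 2 was low for Icam2 (1.13 CPM, others 2.09 to 2.42) and S1pr1 (12.8, others 15.3 to 16.2), and cisplatin replicate 5 was low for S1pr1 (13.2, others 15.7 to 16.4). KW6002 replicate 3 was high for Lyve1 (34.8 CPM, others 19.5 to 21.5). The causes were not tested.

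The effect of KW6002 differed with cisplatin for Adamts1, a protease that inhibits angiogenesis and is not one of the 40 genes, by 1.14 ± 0.20 on the log2 scale (edgeR interaction test, adjusted P = 0.039).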

How the results depend on the processing

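Counts of endothelial genes called after cisplatin, after cotreatment against vehicle and over all cisplatin tumors stayed within 1.5 times under DESeq2, other scalings, other filters, no fold limit, the compared groups alone and the run of library codes (an earlier and a later series of code numbers) as a term or its later part alone. Testing against the fold limit itself gave 17 of 39, all lower, after cisplatin (against 1.12% of all genes called lower), 17 for cotreatment against vehicle (3.95%), 13 for cotreatment against KW6002 (4.69%) and 0 against cisplatin. Cotreatment against KW6002 gave 15 in the later codes alone and 16 in the earlier codes alone (the latter chosen after seeing the data), with fewer tumors. Without tumors holding skeletal muscle RNA cisplatin gave 13. Cotreatment against cisplatin (1 in the main analysis) gave 0 with no filter, with only the 2 groups and in the later codes, and 2 under DESeq2, when each tumor had to hold 10 counts or more, in the earlier codes and without tumors holding fat RNA.

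Leaving out each tumor gave 24 to 29 after cisplatin, 23 to 29 for cotreatment against vehicle, 22 to 27 for cotreatment against KW6002, 0 to 2 against cisplatin and 29 to 32 over all cisplatin tumors. It gave 0 for KW6002 and for the interaction. Of the 24 genes given per tumor, none reversed a called direction in these fits, under other scalings or with another prior count. Prox1, one of the 24, had no call that could reverse. Replicate numbers did not pair the tumors (correlations from -0.392 to 0.391), and with them as a block the counts were 29, 30, 27, 1 and 31 in the same order. Prox1 and other genes near 0 are limited by depth.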
